A study of Mus musculus with 6 samples.

Results

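Vascular smooth muscle cells, pericytes and fibroblasts of the kidney were followed through 10 marker genes in whole-kidney RNA. The members were the rows of the deposited table named Acta2, Tagln, Myh11, Cnn1, Cnn2, Des, Cspg4, Pdgfrb, Pdgfra and Dcn, 10 of 19503 rows with values. There were 3 libraries of R26NICD2/+pax8cre kidneys and 3 of wild-type (WT) kidneys, all from mice 8 weeks old. The R26NICD2/+ allele holds the Notch2 intracellular domain, a form of the receptor that works in the nucleus without a ligand, at the Rosa26 locus. The Pax8 driver is known for its activity in tubule epithelium, not in the cells that these markers name. The labels give pax8cre as the driver, the series title gives Pax-rtTA, and the titles of the WT libraries begin with NICD, so WT kidneys may or may not have carried the allele without a driver. The labels tie no library to an animal of its own, and p-values therefore reflect only the scatter among these libraries, part of which may be technical.

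Smooth muscle cells contract through actin and myosin filaments, and Acta2, Tagln, Myh11, Cnn1, Cnn2 and Des encode parts or regulators of that apparatus. Pericytes wrap capillaries and carry Pdgfrb and Cspg4, while fibroblasts of the interstitium carry Pdgfra and secrete matrix proteins such as decorin. In injured kidneys, pericytes and fibroblasts can take on contractile genes and are then called myofibroblasts. Several contractile genes are also transcribed by epithelial and inflammatory cells, so none of the 10 names a cell type by itself in bulk RNA.

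Of the 6 contractile members, Acta2, Tagln, Cnn2 and Cnn1 rose in R26NICD2/+pax8cre kidneys and 0 fell, and both fibroblast members, Dcn and Pdgfra, fell. The pericyte members split, with Cspg4 higher and Pdgfrb not called. All 10 members passed the filter of 1 FPKM (fragments per kilobase of transcript, scaled to the depth of the library) in at least 3 libraries, and 5 were called higher and 2 lower at an adjusted p under 0.05 (limma on log2(FPKM + 1), Benjamini-Hochberg over all genes). Over all 13500 genes tested, 45.1% were called higher and 16.2% lower, 61.4% together, so 5 of 10 called higher is a share near that of all genes. The median log2 fold change was 0.80 over the members and 0.32 over all genes tested. After median-of-ratios scaling, which moved the median of all genes to 0.02, the counts of members were again 5 and 2, against 28.5% of all genes called higher and 26% lower, 54.4% together. The split of all genes was 6095 higher and 2190 lower as deposited and 3827 higher and 3493 lower after scaling. In bulk kidneys, fewer cells of a type and less RNA per cell cannot be told apart.

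The WT group was not uniform. WT replicate 1 held transcripts of adrenal cortex: the 8 listed markers summed to 1.47 to 1.72 FPKM in R26NICD2/+pax8cre libraries, 3707 FPKM in WT replicate 1 and 1.46 to 1.77 FPKM in WT replicates 2 and 3. The 8 adipocyte markers summed to 68.9 to 442 FPKM in R26NICD2/+pax8cre libraries and to 4634, 949 and 171 FPKM in WT replicates 1 to 3. The genes with the highest mean over the 6 libraries in these lists were Hsd3b1, a steroid dehydrogenase, at 0 FPKM in every R26NICD2/+pax8cre library and 1208 FPKM in WT replicate 1, and Fabp4, a fatty acid carrier, at 45.5 to 159 FPKM in R26NICD2/+pax8cre libraries and 117 to 2139 FPKM in WT libraries. WT replicate 2 held urothelial transcripts: Upk2 stood at 0.70 to 3.26 FPKM in R26NICD2/+pax8cre libraries, 3.76 FPKM in WT replicate 2 and at most 0.09 FPKM in the other WT libraries, and Psca at 2.93 to 6.86 FPKM in R26NICD2/+pax8cre libraries, 10.1 FPKM in WT replicate 2 and at most 0.46 FPKM in the other WT libraries. Upk1a, the urothelial marker with the highest mean over the 6 libraries, though below Psca in WT replicate 2, stood at 36.6 to 37.5 FPKM in R26NICD2/+pax8cre libraries and 0.73 to 4.56 FPKM in WT libraries. All 6 libraries held kidney transcripts, with Cdh16, a cadherin of tubules, at 137 to 211 FPKM in R26NICD2/+pax8cre kidneys and 291 to 413 FPKM in WT kidneys. Of 8 epithelial markers 6 fell, against 16.2% of all genes called lower. Among them was Slc34a1, the phosphate transporter of the proximal tubule, at 43.2 to 257 FPKM in R26NICD2/+pax8cre kidneys and 1891 to 2797 FPKM in WT kidneys. Without WT replicate 1, 5 members were again called higher and 2 lower, against 50.4% and 15.6% of all genes, 66.0% together.

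**Figure D1:**
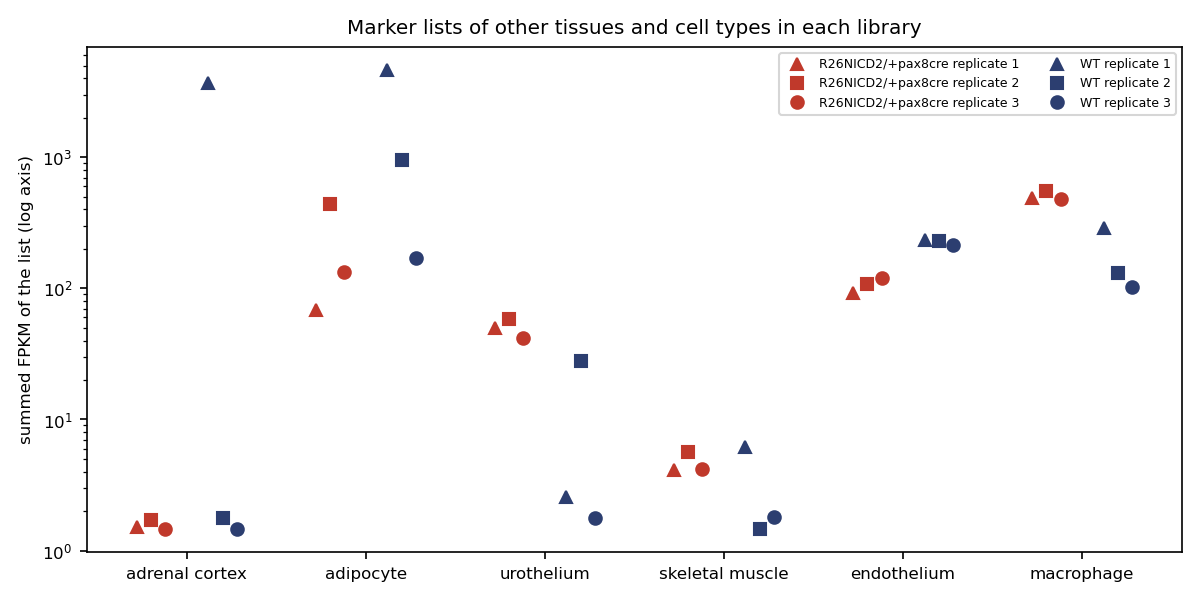
Summed FPKM (log axis) of marker lists of other tissues and cell types in each of the 3 R26NICD2/+pax8cre and 3 WT libraries, with 1 point per library. WT replicate 1 stands at 3707 FPKM of adrenal and 4634 FPKM of adipocyte transcripts, and WT replicate 2 holds more urothelial transcripts than the other WT libraries.

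Acta2, smooth muscle actin (gene 11475, GRCm38 chromosome 19, 34240336 to 34255585, minus strand), stood at 114, 155 and 141 FPKM in R26NICD2/+pax8cre replicates 1 to 3 and at 39.9, 24.5 and 23.4 FPKM in WT replicates 1 to 3. Every R26NICD2/+pax8cre library lay above every WT library, and WT replicate 1 was the highest of its group. The ratio of group means was 4.67, or 5.71 without WT replicate 1, and the log2 fold change was 2.22 (SE 0.22, limma adjusted p = 3.02e-04). The actins are a family of closely similar genes, and how the authors' counting divided reads among them is not given in the sources used here. The rows of Acta1, Actc1 and Actg2 were far lower than Acta2 in every library, with Acta1 at 1.84, 2.41 and 0.98 FPKM in R26NICD2/+pax8cre kidneys and 0.25, 0.10 and 0.05 FPKM in WT kidneys.

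Tagln, the actin-binding protein transgelin (gene 21345, chromosome 9, 45929628 to 45936058, minus strand), moved beside Acta2, with 128, 144 and 141 FPKM in R26NICD2/+pax8cre kidneys and 52.6, 29.5 and 33.7 FPKM in WT kidneys. The groups did not overlap, and again WT replicate 1 was the highest WT library. The ratio of means was 3.57, or 4.36 without WT replicate 1, and the log2 fold change was 1.85 (SE 0.21, limma adjusted p = 4.59e-04). Pcsk7, a protease gene on the opposite strand, overlaps 2480 bases of the Tagln row, and no source used here says whether counting used the strand. Pcsk7 stood at 13.4, 13.6 and 14.5 FPKM in R26NICD2/+pax8cre kidneys and 10.7, 11.9 and 13.2 FPKM in WT kidneys, a narrower difference than that of Tagln.

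Cnn2, calponin 2, an actin-binding protein that non-muscle cells also make (gene 12798, chromosome 10, 79988600 to 79995400, plus strand), stood at 46.0, 55.7 and 50.5 FPKM in R26NICD2/+pax8cre kidneys and 23.9, 20.2 and 15.7 FPKM in WT kidneys. All 3 R26NICD2/+pax8cre libraries were above the WT libraries. Its log2 fold change was 1.32 (SE 0.16, limma adjusted p = 6.40e-04), with a ratio of means of 2.55. Markers of macrophages, which are known to transcribe Cnn2, rose in 6 of 8 cases and 0 fell, against 45.1% of all genes called higher and 16.2% called lower. The summed level of these markers was 477 to 557 FPKM in R26NICD2/+pax8cre kidneys and 102 to 288 FPKM in WT kidneys. Lyz2, a lysozyme and the most abundant of them, stood at 149 to 205 FPKM in R26NICD2/+pax8cre kidneys and 18.7 to 109 FPKM in WT kidneys. The part of macrophages in the level of Cnn2 was not tested.

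Cnn1, calponin 1, which is largely restricted to smooth muscle (gene 12797, chromosome 9, 22099221 to 22109221, plus strand), was low throughout, at 3.63, 4.45 and 3.82 FPKM in R26NICD2/+pax8cre kidneys and 0.48, 2.50 and 0.52 FPKM in WT kidneys. The groups did not overlap, but WT replicate 2 stood far above the other WT libraries, and it alone of the WT libraries reached the filter of 1 FPKM. The log2 fold change was 1.32 (SE 0.34, limma adjusted p = 0.0131), and the ratio of means was 3.4, or 7.93 without WT replicate 2. WT replicate 2 is also the WT library with urothelial transcripts, and their part in this value was not tested. Read from an estimated depth of 16100000 to 17800000 fragments in R26NICD2/+pax8cre libraries and 14600000 to 15100000 in WT libraries, the lowest Cnn1 value rested on about 13 fragments. After quantile normalization the difference missed the threshold (log2 fold change 0.91, adjusted p = 0.0539), and in the authors' deposited table the DESeq2 q was 0.0974.

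Myh11 and Des, 2 further markers of differentiated muscle, did not pass. Myh11, the smooth muscle myosin heavy chain (gene 17880, chromosome 16, 14194527 to 14292188, minus strand), stood at 6.13, 7.70 and 6.31 FPKM in R26NICD2/+pax8cre kidneys and 4.46, 5.99 and 4.26 FPKM in WT kidneys. The groups did not overlap, but the lowest R26NICD2/+pax8cre library, at 6.13 FPKM, lay close to the highest WT library, replicate 2, at 5.99 FPKM. Its log2 fold change of 0.39 (SE 0.15, limma adjusted p = 0.062; 95% interval 0.03 to 0.76, not adjusted for the number of genes) is close to the median of all genes, and after median-of-ratios scaling it was 0.09 (95% interval -0.29 to 0.47) and the groups overlapped. It passed without WT replicate 2 (0.52, adjusted p = 0.0304).

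Des, the intermediate filament desmin (gene 13346, chromosome 1, 75360292 to 75368579, plus strand), varied least, with 8.56, 8.32 and 7.83 FPKM in R26NICD2/+pax8cre kidneys and 7.54, 7.31 and 7.47 FPKM in WT kidneys. Its log2 fold change was 0.13 (SE 0.09, limma adjusted p = 0.273; 95% interval -0.10 to 0.36). The sign depended on the scaling: as deposited, all R26NICD2/+pax8cre values lay above the WT values, and after median-of-ratios scaling they lay below them (log2 fold change -0.18, adjusted p = 0.148). In FPKM as deposited, the groups did not overlap in the higher direction for 49.9% of all genes tested and in the lower direction for 18.8%, and after scaling for 34.0% and 30.9%.

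**Figure D2:**
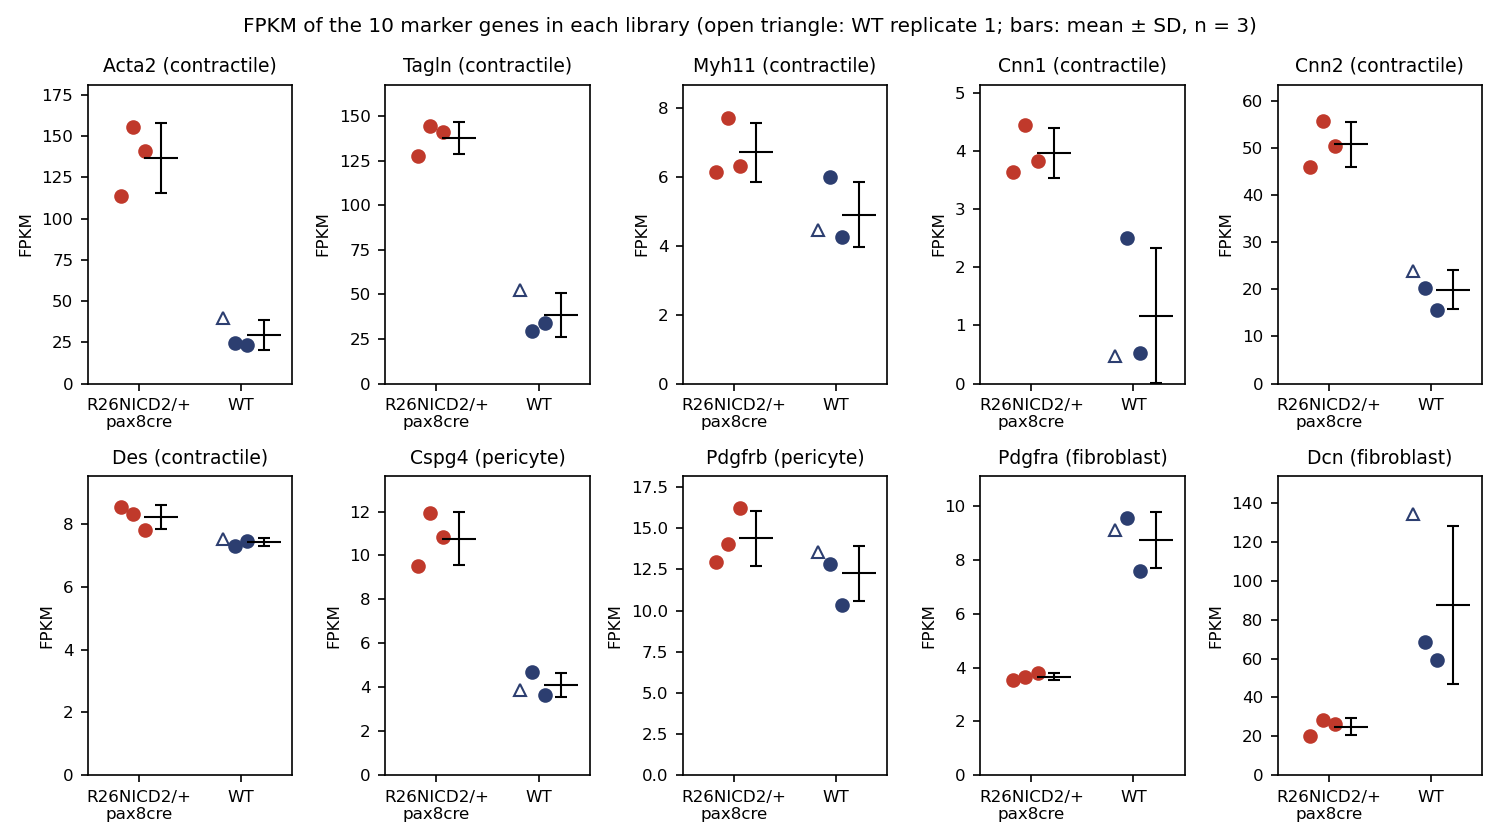
FPKM of each marker gene (linear axes from 0) in the 3 R26NICD2/+pax8cre libraries and the 3 WT libraries, with the mean and SD of each group beside the points and WT replicate 1 as an open triangle. Acta2, Tagln, Cnn2 and Cspg4 are separated by wide gaps, Myh11, Des and Pdgfrb lie close together, and Pdgfra and Dcn are lower in R26NICD2/+pax8cre kidneys.

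Contractile genes are known to be switched on by serum response factor, SRF, which binds a sequence called the CArG box, so the bases before the start that the promoter table gives for each member were searched for it. The RefSeq promoter table of GRCm38.p6 held 6 of the 10 members, namely Acta2, Cnn1, Cnn2, Des, Cspg4 and Pdgfra, and the 250 bases before each start were read. A match here means CC and GG around 6 bases of which at least 5 are A or T, a pattern that reads the same on both strands. Acta2 had 2 matches and Cnn2 had 1, and the other 4 had 0. Of 32851 promoter windows of this length, 8.59% held a match, and 1.47% held one in which all 6 inner bases are A or T, as in Cnn2. The sites are printed because they belong to contractile members that rose together, with the box in capitals, 10 bases on each side and positions counted back from the RefSeq start, chr19:34255438-34255467 and chr19:34255388-34255417 on the minus strand for Acta2 and chr10:79988534-79988563 on the plus strand for Cnn2.
Acta2, box at -84 to -75: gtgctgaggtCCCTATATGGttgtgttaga
Acta2, box at -34 to -25: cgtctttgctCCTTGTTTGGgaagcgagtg
Cnn2, box at -56 to -47: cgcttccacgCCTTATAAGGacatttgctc
These starts are those of the promoter table, 1 for each gene, and other transcripts can start elsewhere. The deposited Acta2 row, with its end at 34255585, reaches further upstream than the start in the table, as does the GENCODE M21 annotation, so both Acta2 boxes lie inside the row and in the first exon of that annotation. The Pdgfra window, from 75152001 to 75152250, likewise lies inside the deposited Pdgfra row, which starts at 75151322. Its lack of a match therefore says nothing of the bases before that row. The Cnn1 window, from 22099003 to 22099252, also reaches into the deposited Cnn1 row, which starts at 22099221. The heptamer GTGGGAA, the core bound by the Notch partner RBPJ, was searched on both strands, was in 0 of the 6 windows and was in 5.42% of all windows. A match is a description of the letters and not a bound site. A stretch before the Cnn2 start is printed, chr10:79988350-79988583 on the plus strand, because its box is the only one of the 3 with A and T alone inside. It runs from -250 to -17. The bases nearer the start are left out, because an exon of the GENCODE M21 annotation reaches into them.
Cnn2: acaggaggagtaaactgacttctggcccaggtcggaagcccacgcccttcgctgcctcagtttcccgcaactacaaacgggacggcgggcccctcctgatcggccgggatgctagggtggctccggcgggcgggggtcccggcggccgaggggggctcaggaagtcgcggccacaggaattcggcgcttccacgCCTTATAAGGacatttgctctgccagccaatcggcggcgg

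The pericyte members differed from each other. Cspg4, the proteoglycan NG2 (gene 121021, chromosome 9, 56865104 to 56899870, plus strand), stood at 9.53, 11.9 and 10.8 FPKM in R26NICD2/+pax8cre kidneys and 3.89, 4.70 and 3.66 FPKM in WT kidneys. The groups did not overlap, and WT replicate 1 lay within its group. Its log2 fold change was 1.21 (SE 0.13, limma adjusted p = 4.01e-04), with a ratio of means of 2.64.

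Pdgfrb, the receptor for PDGF-B that marks pericytes, mesangial cells and most interstitial fibroblasts (gene 18596), stood at 12.9, 14.0 and 16.2 FPKM in R26NICD2/+pax8cre kidneys and 13.6, 12.8 and 10.4 FPKM in WT kidneys. The groups overlapped. Its log2 fold change was 0.22 (SE 0.14, limma adjusted p = 0.209; 95% interval -0.11 to 0.55), and after median-of-ratios scaling it was -0.11 (95% interval -0.40 to 0.18). The interval as deposited reaches a log2 fold change of 0.55 and so does not show that the level was the same.

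Of the fibroblast members, Pdgfra, the receptor for PDGF-A (gene 18595, chromosome 5, 75151322 to 75198206, plus strand), stood at 3.53, 3.65 and 3.79 FPKM in R26NICD2/+pax8cre kidneys and 9.12, 9.57 and 7.58 FPKM in WT kidneys. The R26NICD2/+pax8cre libraries were tightly grouped and all below the WT libraries, and WT replicate 1 lay between the other WT libraries. The mean was 2.39-fold lower (log2 fold change -1.06, SE 0.12, limma adjusted p = 4.47e-04).

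Dcn, decorin, a small proteoglycan that binds collagen fibrils (gene 13179, chromosome 10, 97479500 to 97518163, plus strand), stood at 19.97, 28.4 and 26.4 FPKM in R26NICD2/+pax8cre kidneys and 134, 68.8 and 59.5 FPKM in WT kidneys. The groups did not overlap with or without WT replicate 1, which held 2.1 times the mean of the other WT libraries. The mean was 3.51-fold lower, or 2.57-fold lower without WT replicate 1, and the log2 fold change of -1.69 (SE 0.31, limma adjusted p = 0.00315) was -1.34 without that library (adjusted p = 0.00103). In the WT libraries Dcn followed the order of the adipocyte sum, highest in replicate 1 and lowest in replicate 3, and the part of fat tissue in its WT level was not tested.

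**Figure D3:**
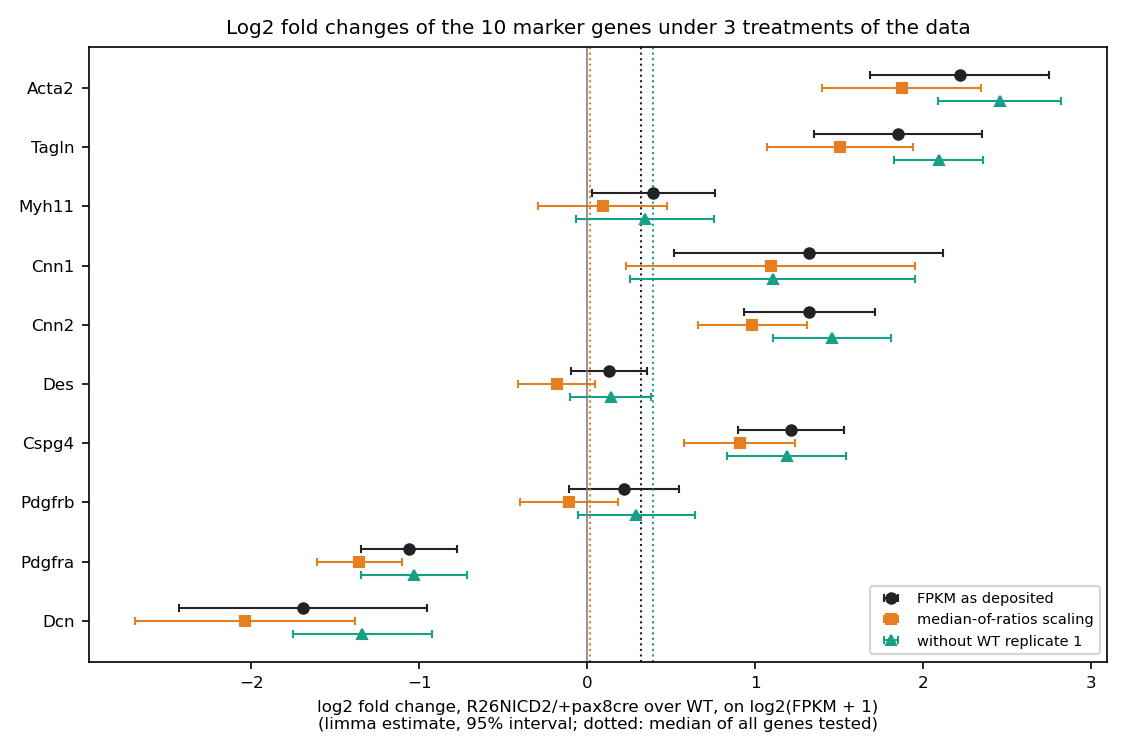
Log2 fold changes of the marker genes (x axis, R26NICD2/+pax8cre over WT on log2(FPKM + 1), with limma 95% intervals) as deposited, after median-of-ratios scaling and without WT replicate 1, with dotted lines at the median of all genes tested. Acta2 is at 2.22 as deposited and Dcn at -1.69, while the intervals of Des and Pdgfrb include 0 under all 3 treatments.

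Ratios within a library do not change when all its values are multiplied by one factor. The ratio of Acta2 to Dcn in FPKM was 5.69, 5.47 and 5.36 in R26NICD2/+pax8cre replicates 1 to 3 and 0.30, 0.36 and 0.39 in WT replicates 1 to 3. Acta2 thus exceeded Dcn in each R26NICD2/+pax8cre library and was below it in each WT library, WT replicate 1 included. The ratio of Pdgfra to Pdgfrb, both PDGF receptors, was 0.27, 0.26 and 0.23 in R26NICD2/+pax8cre kidneys and 0.67, 0.75 and 0.73 in WT kidneys. Among contractile genes alone, the ratio of Acta2 to Myh11 was 18.5, 20.2 and 22.4 in R26NICD2/+pax8cre kidneys and 8.95, 4.09 and 5.49 in WT kidneys, so the contractile members did not move in step. The ratio of Acta2 to Tagln was 0.89, 1.08 and 1.00 in R26NICD2/+pax8cre kidneys and 0.76, 0.83 and 0.69 in WT kidneys, a far smaller difference between the groups. The mean log2(FPKM + 1) of the 6 contractile members minus that of the 2 fibroblast members was 1.28 ± 0.07 in R26NICD2/+pax8cre kidneys and -1.31 ± 0.23 in WT kidneys (SD, n = 3 each), a difference of 2.58, or 2.45 without WT replicate 1. No p is given for these ratios and means, because the members were chosen with results of these data known.

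**Figure D4:**
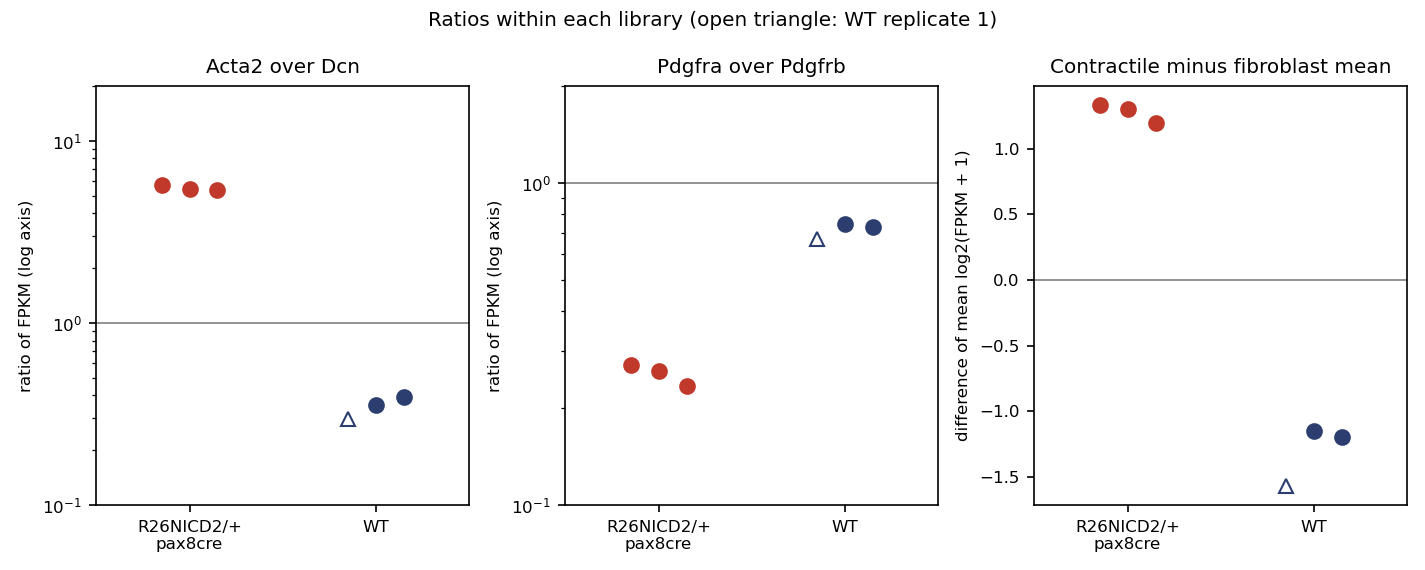
Ratio of Acta2 to Dcn and of Pdgfra to Pdgfrb in FPKM (log axes) and contractile minus fibroblast mean of log2(FPKM + 1), with 1 point per library and WT replicate 1 as an open triangle. The R26NICD2/+pax8cre libraries lie between 5.36 and 5.69 for Acta2 over Dcn and the WT libraries between 0.30 and 0.39.

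The order of the levels, which FPKM allows because it is per transcript length, differed between the groups. In R26NICD2/+pax8cre kidneys Tagln and Acta2 were highest, at 138 ± 8.85 and 137 ± 21.2 FPKM (SD, n = 3 each), and their libraries overlapped. Cnn2, Dcn, Pdgfrb, Cspg4, Des, Myh11 and Cnn1 followed, each below the one before it in every library, and Pdgfra, at 3.66 ± 0.13 FPKM (SD, n = 3), overlapped Cnn1. In WT kidneys Dcn was highest, at 87.5 ± 40.8 FPKM (SD, n = 3). Tagln, Acta2 and Cnn2 came next, with neighbours overlapping, and Pdgfrb, Pdgfra and Des then followed without overlap. Myh11 and Cspg4 overlapped, and Cnn1 was lowest, at 1.17 ± 1.15 FPKM (SD, n = 3).

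Other genes of the same cell types were taken from lists. Of 20 further smooth muscle genes, 16 were tested, 10 rose, 1 fell and 5 did not pass, with a median log2 fold change of 0.83, against 45.1% of all genes called higher, 16.2% called lower and a median of 0.32. The 3 with the smallest p were Actn1, an actin crosslinker of adhesion sites, at 100.5, 98.3 and 82.0 FPKM in R26NICD2/+pax8cre kidneys and 14.1, 14.4 and 12.4 FPKM in WT kidneys, Cald1, caldesmon, with a log2 fold change of 1.28, and Flna, filamin A, with 1.86. These 3 are also transcribed in many non-muscle cells. Actg2, the smooth muscle gamma actin, which was chosen after its values were seen, stood at 4.45, 4.70 and 3.39 FPKM in R26NICD2/+pax8cre kidneys and 0.17, 1.49 and 0.06 FPKM in WT kidneys, so that WT replicate 2 was the highest WT library, as for Cnn1. The gene that fell was Mylk, myosin light chain kinase, which activates smooth muscle myosin, at 19.4, 23.5 and 21.1 FPKM in R26NICD2/+pax8cre kidneys and 31.3, 30.9 and 27.5 FPKM in WT kidneys (log2 fold change -0.47, limma adjusted p = 0.0085). After median-of-ratios scaling 7 rose and 3 fell, against 28.5% and 26% of all genes. Skeletal muscle genes were low, with a sum of 4.11 to 5.68 FPKM in R26NICD2/+pax8cre libraries and 1.45 to 6.15 FPKM in WT libraries, and Mylpf, a fast muscle myosin light chain with the highest mean over the 6 libraries, stood at 0.47 to 1.38 FPKM in R26NICD2/+pax8cre libraries and 0.72 to 1.53 FPKM in WT libraries. Acta1, given above, Tnnt3 and Tnni2, both troponin subunits of fast muscle, were under the filter and higher without overlap, with Tnnt3 at 0.20, 1.18 and 0.99 FPKM in R26NICD2/+pax8cre libraries and 0.08, 0 and 0.08 FPKM in WT libraries. Tnni2 stood at 1.60, 0.70 and 0.68 FPKM in R26NICD2/+pax8cre libraries and 0.23, 0.11 and 0.11 FPKM in WT libraries, and the part of skeletal muscle in the contractile values was not tested.

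Regulators of the contractile genes had smaller log2 fold changes than Acta2 and Tagln. Of 8 listed regulators, 6 were tested, 3 rose, 1 fell and 2 did not pass, with the same counts after median-of-ratios scaling. As deposited these shares are near the 45.1% of all genes called higher and 16.2% called lower. After scaling, 28.5% of all genes were called higher and 26% lower. Srf stood at 16.2, 17.8 and 15.8 FPKM in R26NICD2/+pax8cre kidneys and 11.1, 8.81 and 7.26 FPKM in WT kidneys (log2 fold change 0.82, limma adjusted p = 0.00352), and its actin-sensing coactivators Mrtfb and Mrtfa rose by log2 fold changes of 0.70 and 0.68. Tcf21, a transcription factor of renal stroma and podocytes, fell, with 5.32, 7.27 and 6.54 FPKM in R26NICD2/+pax8cre kidneys and 10.25, 17.4 and 14.4 FPKM in WT kidneys (log2 fold change -1.01, limma adjusted p = 0.00488). Myocd, the coactivator that drives the smooth muscle programme, was under the filter, at 0.20, 0.13 and 0.15 FPKM in R26NICD2/+pax8cre kidneys and 0.08, 0.12 and 0.15 FPKM in WT kidneys.

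Of 12 further pericyte and mesangial genes, 10 were tested, 4 rose and 4 fell, against 45.1% of all genes called higher and 16.2% called lower. Their median log2 fold change was -0.31, against 0.32 over all genes. Notch3, a Notch receptor of mural cells, rose to 25.8, 23.2 and 22.7 FPKM in R26NICD2/+pax8cre kidneys, against 3.71, 3.09 and 2.26 FPKM in WT kidneys. Gata3, Rgs5 and Mcam also rose, of which Gata3 is transcribed in the collecting duct as well. The members that fell were Abcc9 and Kcnj8, subunits of the potassium channel of pericytes, Ren1, renin of the juxtaglomerular cells, and Itga8, an integrin of mesangial cells. Abcc9 stood at 0.93, 1.16 and 0.89 FPKM in R26NICD2/+pax8cre kidneys and 4.82, 4.60 and 5.20 FPKM in WT kidneys. Ren1 fell to 18.4, 28.9 and 33.2 FPKM in R26NICD2/+pax8cre kidneys, against 94.0, 100.1 and 135 FPKM in WT kidneys (log2 fold change -2.01, limma adjusted p = 5.44e-04). After scaling 2 rose and 5 fell of 9 tested, against 28.5% of all genes called higher and 26% lower. Rgs5 and Mcam were then no longer called. The 8 markers of endothelium, which pericytes cover, summed to 92.8 to 120 FPKM in R26NICD2/+pax8cre kidneys and 215 to 235 FPKM in WT kidneys. As deposited 7 of 8 fell, against 16.2% of all genes called lower. Among them was Plvap, a protein of fenestrated endothelium and the most abundant of the list, at 35.4 to 46.6 FPKM in R26NICD2/+pax8cre kidneys and 70.8 to 86.5 FPKM in WT kidneys.

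The PDGF ligands that bind the receptors above were all measured. Pdgfb, the ligand of Pdgfrb, rose to 44.2, 32.8 and 27.3 FPKM in R26NICD2/+pax8cre kidneys, against 10.4, 10.35 and 8.85 FPKM in WT kidneys (log2 fold change 1.69, limma adjusted p = 3.67e-04). Pdgfa, a ligand of Pdgfra, rose by a log2 fold change of 0.64 (limma adjusted p = 0.0123) and was not called after median-of-ratios scaling. Pdgfc and Pdgfd had log2 fold changes of -0.24 and -0.43 and did not pass, and after scaling both were called lower.

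Of 20 further fibroblast genes, 17 were tested, 4 rose, 4 fell and 9 did not pass, against 45.1% of all genes called higher and 16.2% called lower. Their median log2 fold change was -0.21, against 0.32 over all genes. Ogn, osteoglycin, a proteoglycan of the decorin family, had the smallest p, at 3.53, 2.85 and 2.79 FPKM in R26NICD2/+pax8cre kidneys and 41.7, 26.9 and 22.3 FPKM in WT kidneys (log2 fold change -2.91, limma adjusted p = 1.19e-04). Vim, the intermediate filament vimentin, rose by 1.64 and S100a4, a calcium-binding protein, by 1.59 on the log2 scale, and both are also made by other cells, inflammatory cells among them. Thy1 and Fbln2 were the other genes that rose, and Dpt, Scara5 and Pi16 the others that fell. Scara5 reached the filter of 1 FPKM only through the WT libraries, at 5.82, 2.87 and 1.32 FPKM, against 0.54, 0.90 and 0.43 FPKM in R26NICD2/+pax8cre libraries. The counts of this list changed without WT replicate 1 and with scaling, as did the shares of all genes. Without WT replicate 1, 6 of 16 rose and 1, Ogn, fell, against 50.4% of all genes called higher and 15.6% lower. After median-of-ratios scaling of all libraries 2 of 17 rose and 6 fell, against 28.5% and 26% of all genes. Lum, lumican, shows the spread, at 0.95, 1.25 and 0.80 FPKM in R26NICD2/+pax8cre kidneys and 11.8, 3.98 and 1.30 FPKM in WT replicates 1 to 3.

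**Figure D5:**
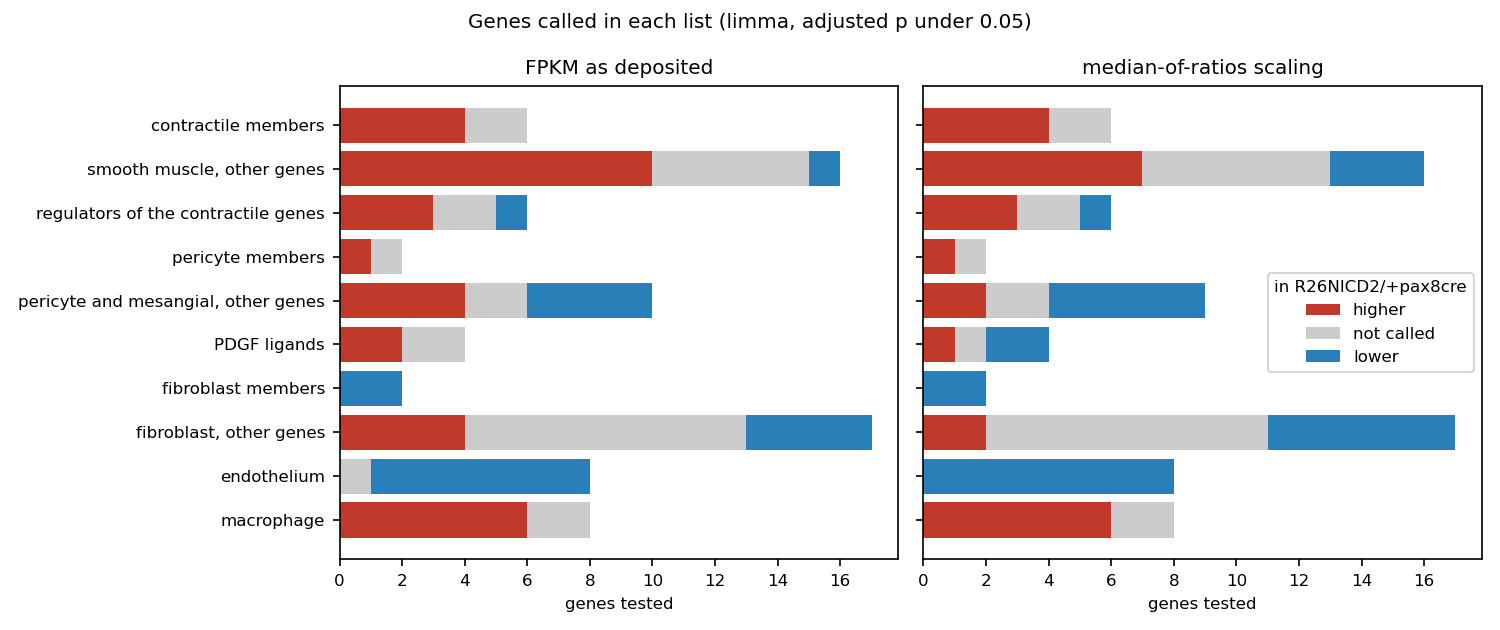
Number of tested genes in each list (x axis) called higher, not called or called lower in R26NICD2/+pax8cre kidneys by limma at an adjusted p under 0.05, as deposited and after median-of-ratios scaling. In both panels 4 contractile members are called higher and both fibroblast members lower, while the further pericyte and fibroblast genes go both ways.

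With Gm and Rik symbols left out, the genes most like Acta2 in profile over the 6 libraries were outside the muscle lists. Such likeness mostly reflects a similar log2 fold change and does not speak to cell type. The log2 fold changes were 2.15 to 2.30 for these genes and 2.22 for Acta2. Likeness was measured as the root mean square difference in log2(FPKM + 1) after centring each gene on its own mean, and the smallest values were 0.08 for Siva1, 0.09 for a gene model that carries only an identifier of the authors, 0.09 for Ephx1, 0.10 for Acot7 and 0.13 for H2-DMa, against 0.21 for Tagln and 0.97 for Myh11. Ephx1, an epoxide hydrolase, stood at 173, 202 and 184 FPKM in R26NICD2/+pax8cre kidneys and 49.6, 32.1 and 31.7 FPKM in WT kidneys, with WT replicate 1 the highest WT library, as for Acta2. The genes most like Dcn were C7, a complement component, at 0.11, Klhdc8a at 0.14, Syn2 at 0.14, Slc2a4, a glucose transporter of fat and muscle, at 0.17 and Efhd1 at 0.17, while Pdgfra was at 0.47. Slc2a4 stood at 4.73, 6.93 and 4.26 FPKM in R26NICD2/+pax8cre kidneys and 30.8, 14.4 and 13.0 FPKM in WT kidneys.

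In the authors' deposited table, log2 fold changes are read as NICD_Pax, the R26NICD2/+pax8cre group, over NICD, from the signs of Acta2 and Dcn. The directions of Acta2 and Dcn there were thus set by this reading and carry no separate information. At a DESeq2 q under 0.05, 4 members were higher (Acta2, Tagln, Cnn2 and Cspg4) and Pdgfra and Dcn were lower, against 21.3% and 21.5% of 19439 genes. The authors' log2 fold changes ran to 1.96 for Acta2 and to -2.09 for Dcn. The same table had Myh11 at 0.04 (q = 0.918), Des at -0.20 (q = 0.268) and Pdgfrb at -0.11 (q = 0.64). For Des and Pdgfrb the sign is opposite to that of the FPKM difference. Mean FPKM in R26NICD2/+pax8cre and WT kidneys was 8.24 and 7.44 for Des and 14.4 and 12.3 for Pdgfrb.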

How the data were processed

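RNA of whole kidneys was extracted with Trizol and made into libraries with the Illumina TruSeq RNA kit, per the labels' protocols. Bowtie 0.12.2 and the mm8 build appear in the submitters' processing notes, and the counting tool is not given in the sources used here. The authors deposited FPKM per library and per group, per the file headers, with no composition scaling named. The authors also deposited log2 fold changes with p-values and q-values, the q-values named DESeq2 in the file headers. All 10 members had the same start and end as in the RefSeq annotation of GRCm38.p6 (86.6% of 17966 matched rows did), so positions are read as GRCm38.

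Of 23873 rows, 4370 had no values. The 13500 genes that reached 1 FPKM in 3 libraries or more entered a linear model of log2(FPKM + 1) on genotype alone (limma 3.58.1 with its trend option, R 4.3.3), two-sided, with Benjamini-Hochberg adjustment over all of them and a threshold of 0.05. The added 1 FPKM understates changes of low genes. The fit was also run on simulated data in which few genes changed, unlike these data, where 61.4% of genes were called. The outcome of that run is therefore not used here. Ratios are of mean FPKM.

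The members, lists and tests were chosen with earlier results of these data known. The rule for named genes took all members, the 3 genes of smallest p in each related list, all PDGF ligands, the gene of highest mean FPKM in each list of other tissues, and the 5 genes most like Acta2 and Dcn, with symbols of Gm and a number or ending in Rik left out but gene models of the authors kept. Genes outside it, among them those that make up small counts, were named after their values were seen. Mkl1 and Mkl2 were read as Mrtfa and Mrtfb. Meg3 and Myod1 were not analysed here.

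Depth was estimated from genes with 1 transcript, whose low FPKM values step in whole fragments. With the best step, 72.5% to 79.1% of values lay within 0.15 of a whole number (30.0% by chance for a fixed step). Fragment numbers cover counting error only. There were 0 further library columns.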

Additional observations from a re-analysis of the deposited data

How the results depend on the processing

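Tried were 3 other scalings (median-of-ratios, upper quartile, quantile), median-of-ratios scaling without WT replicate 1, a pseudocount of 0.1 or 5, no filter on low genes, the replicate block, and each library left out in turn. Of 140 values of single members under these alternatives, 126 kept their direction and their side of the threshold. The calls of Acta2, Tagln, Cnn2, Cspg4, Pdgfra and Dcn did so under every alternative. Des changed sign, to -0.18 with median-of-ratios scaling, -0.23 with that scaling and without WT replicate 1, -0.27 with quantile normalization and -0.21 with upper quartile scaling. Pdgfrb changed sign likewise, to -0.11, -0.0945, -0.17 and -0.13 in the same order. Myh11 changed sign to -0.0122 with median-of-ratios scaling without WT replicate 1 and to -0.0181 with quantile normalization. Median-of-ratios scaling puts the median of all genes at 0.02, against 0.32 as deposited. Cnn1 missed the threshold with quantile normalization and with median-of-ratios scaling without WT replicate 1 (0.84, adjusted p = 0.0895; range over its alternatives 7.44e-04 to 0.0895), and the cause was not tested. The contractile minus fibroblast difference of 2.58 was 2.84 with a pseudocount of 0.1 and 2.09 with 5, and 2.45 to 2.66 without single libraries. The labels do not say whether a replicate number pairs libraries. Deviations of same-numbered libraries from their group means had correlations of 0.10, -0.05 and 0.01. With 3 libraries per group these cannot show whether such libraries shared a batch. With the replicate block 7982 genes were called, against 8285 without it, and Myh11 passed (0.39, adjusted p = 0.0385). Other calls of members were as before. Leaving out single libraries gave 6454 to 8706 calls. Depth limits Cnn1 most, at about 13 to 15 fragments in WT replicates 1 and 3.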
